A study of Mus musculus with 48 samples.

Results

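Aminoacyl-tRNA synthetases are the enzymes that join each amino acid to its tRNA, the step that makes charged tRNA for protein synthesis. Cells use one set in the cytosol and a second set, made from other nuclear genes, in the mitochondria, while the glycyl and lysyl enzymes serve both places from a single gene. When charged tRNA runs short, the kinase GCN2 is activated and translation of the transcription factor ATF4 increases, and ATF4 turns on many cytosolic synthetase genes together with genes of amino acid synthesis and uptake. The 37 synthetase genes described here are 19 cytosolic, 16 mitochondrial and 2 of both compartments (Gars and Kars), found by gene name among the 48440 genes of the count table. The family was chosen by measured values: the study's three-way contrast gave nominal genes whose enrichment included an entry for aminoacyl-tRNA ligases, which did not pass adjustment for multiple testing, with 7 of the 37, namely Iars, Fars2, Gars, Rars2, Rars, Tars2 and Cars. That contrast and its parts, SA against SU offspring, are therefore given as description only.

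The libraries were made from both hippocampi of 48 female mice aged 3 months, labelled C57BL/6 and bred from C57BL6/J parents, 1 library per animal. The dams of the prenatally stressed (PS) offspring had been restrained 3 times a day from embryonic day 13 to 17. PS offspring were divided by their behaviour in a sociability test into socially affected (SA, labelled susceptible) and socially unaffected (SU, labelled resilient) animals, and control (C) offspring came from undisturbed dams. In the group labelled 5-Htt+/+ there were 8 C, 8 SA and 8 SU libraries, and in the group labelled 5-Htt+/-, offspring of a wild-type mother and a father with 1 constitutive null allele of the serotonin transporter gene, 7 C, 8 SA and 9 SU. All animals were female, all share that breeding scheme, and litter is not in the labels, so that libraries of the same litter cannot be told apart from others and p-values may be too small.

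Total counts per library ranged from 16488405 to 38213754. The level of Slc6a4, the serotonin transporter gene, was 0 to 0.261 CPM (counts scaled to library size) in the libraries labelled 5-Htt+/+ and 12.8 to 17.0 CPM in those labelled 5-Htt+/-, the opposite of a lower level in carriers of a null allele, and genotype is used below as a label only. All 7 markers of hippocampal neurons had reads in every library (3309 to 5255 CPM in sum). The choroid plexus sum ranged from 25.5 to 920 CPM over libraries. Over all genes, the first principal component (7.63% of the variance) correlated across the 48 libraries with the slope of log2 CPM on transcript GC content. The correlation was r = -0.964 (Spearman's rho = -0.953, and r = -0.952 without the 2 most extreme libraries). The component also correlated at r = 0.767 with the percent of reads in genes over 100 kb. Whether it measures base composition alone was not tested. The 6 libraries of lowest component had slopes of 0.139 to 0.309 log2 CPM per 10 points of GC, and the other 42 had slopes of -0.198 to 0.150. Of these 6, 3 were 5-Htt+/- controls, 1 was a 5-Htt+/+ control, 1 an SA 5-Htt+/+ and 1 an SU 5-Htt+/- library, and the comparisons with controls are also given without them. In bulk tissue, fewer cells of a type and less RNA per cell cannot be told apart.

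Reads appear to have been counted over whole gene spans, introns included. In 1378 of 1379 gene pairs with a gene nested inside another on the same strand, the outer gene had at least as many reads as the nested gene in every library, and for pairs on opposite strands this held in 1338 of 1454. Among the 37 synthetases, 19 are overlapped by another listed gene. Lars holds the pseudogene Rps19-ps4, whose mean count is 31.2% of that of Lars. Vars2 shares 4734 bases with Gm20483, an antisense gene with 58.7% of its count, and Ears2 shares 89 bases with Ubfd1, which has 536% of its count.

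The promoters are shown first because some cytosolic synthetases hold a short motif that ATF4 elements also hold. The shared letters of C/EBP-ATF response elements, TGATGNAA, were searched on both strands from 250 bases before to 50 bases after each RefSeq start (GRCm38.p6). Of the 37 genes, 28 have a promoter in that table. The motif was present in 5 of them (17.9%), namely in 4 of 12 cytosolic genes, in 1 of 2 genes of both compartments and in 0 of 14 mitochondrial genes. It was present in 1304 of 32851 promoters of the table (3.97%). Of 8 ATF4-linked synthetases with a promoter in the table, a list of known ATF4 targets described below, 5 held it, and of 6 other cytosolic or dual genes 0 did. The stretches that hold it are printed with the motif in capitals, on the gene's own strand. A match in these windows is a match of letters and not a shown binding site.
Aars, chr8:111033690-111033871, plus strand: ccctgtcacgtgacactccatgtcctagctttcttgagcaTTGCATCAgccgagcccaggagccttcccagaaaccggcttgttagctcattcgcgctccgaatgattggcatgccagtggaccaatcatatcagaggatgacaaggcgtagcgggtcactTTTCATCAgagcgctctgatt
Iars, chr13:49682097-49682159, plus strand: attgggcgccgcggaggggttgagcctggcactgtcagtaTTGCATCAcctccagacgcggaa
Tars, chr15:11399629-11399713, minus strand: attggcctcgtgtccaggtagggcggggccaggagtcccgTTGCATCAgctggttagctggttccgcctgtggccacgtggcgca
Yars, chr4:129189866-129189932, plus strand: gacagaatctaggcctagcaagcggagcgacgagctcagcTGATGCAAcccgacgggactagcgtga
Gars, chr6:55037931-55038018, plus strand: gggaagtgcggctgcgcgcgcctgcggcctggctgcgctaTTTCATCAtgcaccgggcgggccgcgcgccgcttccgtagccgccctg
Counting the start base as 1, the motif in Aars starts 112 bases before the start and again at position 10. In Iars and Yars it starts at positions 8 and 4, and in Tars and Gars 15 and 30 bases before the start.

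Cytosolic enzymes were the more abundant. Level per length, as mean CPM per kilobase of the principal transcript, had a median of 16.8 in the 19 cytosolic genes and of 5.18 in the 16 mitochondrial genes. Among cytosolic genes it was highest for Nars, the asparaginyl enzyme (53.9), and Wars, the tryptophanyl enzyme (36.3), and lowest for Tars, the threonyl enzyme (6.14), and Vars, the valyl enzyme (6.70). The Gars level was 40.8 and that of Kars 22.0. Because reads of introns are in the counts, the order of genes with long introns is uncertain. The order also depends on the length used. Per kilobase of all exons Nars (34.0) and Hars (24.7) were highest, with Wars at 19.2, and Tars (4.17) and Eprs (4.56) lowest.

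The mitochondrial set spread over a wider range. Lars2, the mitochondrial leucyl enzyme, stood highest at 29.1 CPM per kilobase, followed by Iars2, the isoleucyl enzyme, at 12.01. Mars2, the methionyl enzyme (1.996), and Pars2, the prolyl enzyme (2.45), were lowest. The principal transcript of Mars2 has 11294 bases, and its mean level without regard to length was 22.5 CPM. Per kilobase of all exons Sars2 (1.65) and Pars2 (1.74) were lowest, and Rars2 (8.02) stood above Iars2 (7.39). All 37 genes passed the filter on low counts, and the lowest count of any of them in any library was 71.

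**Figure D1:**
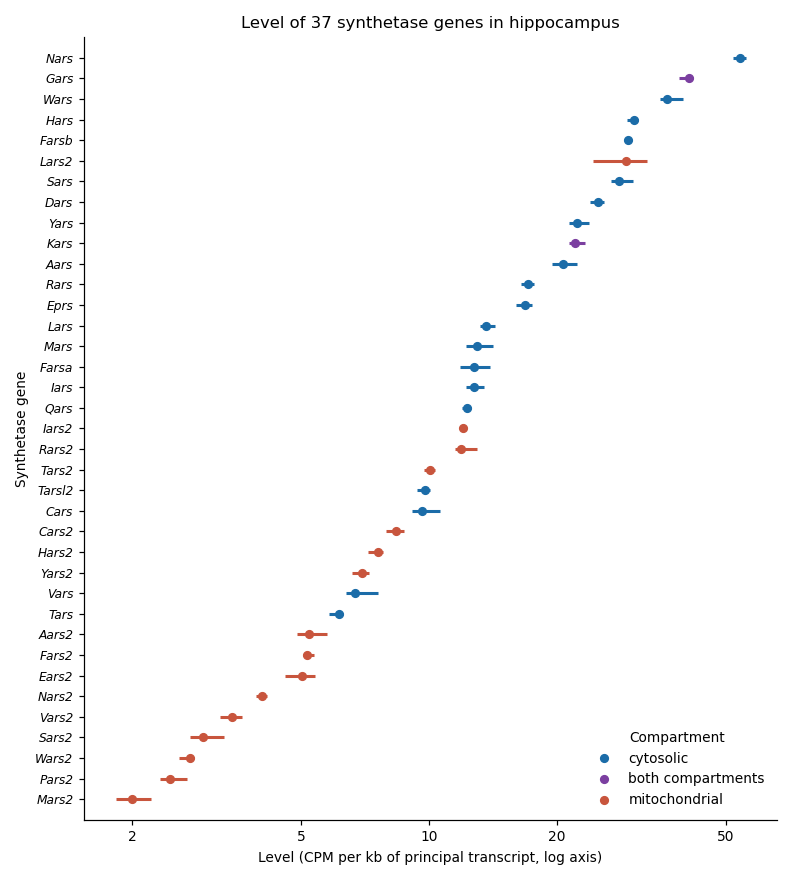
Mean level of each synthetase gene over 48 libraries (points, CPM per kilobase of the principal transcript, log axis) with the range of the 6 group means (lines). Nars is highest and Mars2 lowest, and most mitochondrial genes lie below most cytosolic ones, with Lars2 the exception at 29.1.

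Groups differed little in level. The ratio of the highest to the lowest group mean was 1.03 to 1.19 for cytosolic genes and up to 1.34 for mitochondrial genes, the latter for Lars2. The SD of log2 CPM within groups had a median of 0.103 for cytosolic and 0.141 for mitochondrial genes. It was highest in Lars2 (0.293) and lowest in Iars2 (0.061).

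Most cytosolic synthetases were lower in SA 5-Htt+/- offspring than in 5-Htt+/- controls, but none passed the test over all genes. Of the 37 genes 14 had an unadjusted p under 0.05, 12 lower and 2 higher, where 6.96% of all 31208 genes tested were lower and 5.17% higher at that threshold. After Benjamini-Hochberg adjustment of edgeR's quasi-likelihood test, 0 of 37 were under 0.05, beside 0.0288% of all genes. The 12 lower genes were 10 of 19 cytosolic genes and both dual genes. Leaving out 5-Htt+/- control replicate 3 alone reduced the 14 to 5, and the 12 to 5. The median log2 fold change of the cytosolic genes was -0.11, of the mitochondrial genes -0.026 and of all genes -0.0084. In mean log2 CPM of the cytosolic genes, 5-Htt+/- controls were the highest group (5.717). SA 5-Htt+/- offspring (5.634) lay near SU 5-Htt+/+ offspring (5.639). The mean was 5.677 in C and 5.673 in SA 5-Htt+/+, and 5.676 in SU 5-Htt+/-. Without the 6 libraries of lowest first component it was 5.665 in 5-Htt+/- controls. Among 12989 genes of a level like that of the synthetases, 9.96% were lower. The libraries of SA offspring also enter the contrast that chose the family, and the 2 comparisons with 5-Htt+/- controls share those controls.

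Aars, the alanyl enzyme at chr8:111033144-111057664, was at 107 to 144 CPM (median 129.8) in 5-Htt+/- controls, at 104 to 126 CPM (median 111) in SA and at 108 to 129.9 CPM (median 116) in SU offspring. Of the 7 controls 4 lay above every SA library and 3 of the 8 SA libraries lay below every control, so that the groups overlapped. Its log2 fold change in SA was -0.20 ± 0.058 (SE), with an unadjusted p of 0.00142 and an adjusted p of 0.26 (edgeR).

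Iars, the isoleucyl enzyme at chr13:49682100-49734267 and 1 of the 7 listed genes, was at 54.5 to 67.4 CPM (median 60.1) in controls and at 49.9 to 57.9 CPM (median 54.2) in SA offspring. Of 8 SA libraries 6 lay below every control. The log2 fold change was -0.14 ± 0.044, with an adjusted p of 0.286 in edgeR's test.

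Cars, the cysteinyl enzyme at chr7:143557230-143600090, was at 29.7 to 44.0 CPM (median 33.3) in controls and at 26.0 to 32.3 CPM (median 29.3) in SA offspring, with 4 of 7 controls above every SA library. Its log2 fold change was -0.21 ± 0.075 (edgeR, adjusted p = 0.315).

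Vars, the valyl enzyme at chr17:35000987-35016322, was at 26.4 to 37.8 CPM (median 30.6) in controls, at 19.4 to 32.2 CPM (median 26.8) in SA and at 22.7 to 30.6 CPM (median 26.2) in SU offspring. Its log2 fold change was -0.23 ± 0.075 in SA and -0.24 ± 0.074 in SU, with adjusted p-values of 0.286 and 0.143 (edgeR), the latter the smallest of any synthetase in the 6 comparisons. Of 9 SU libraries 6 lay below every control.

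Yars, the tyrosyl enzyme, and Mars, the methionyl enzyme, differed by -0.14 ± 0.052 and -0.15 ± 0.055. Gars, the glycyl enzyme of both compartments at chr6:55038007-55079500, was at 93.9 to 107 CPM (median 96.8) in controls and at 89.4 to 97.4 CPM (median 92.2) in SA offspring. Of 8 SA libraries 6 lay below every control, and the log2 fold change was -0.11 ± 0.041 (edgeR, adjusted p = 0.341). The other lower genes were Sars, Wars, Lars, Farsa and Kars, at -0.14, -0.16, -0.11, -0.15 and -0.12.

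The 2 higher genes were mitochondrial. Hars2, the histidyl enzyme, was at 22.7 to 26.6 CPM (median 23.8) in controls and 24.7 to 27.5 CPM (median 25.6) in SA offspring, with 5 of 7 controls below every SA library and a log2 fold change of 0.12 ± 0.055 (edgeR, adjusted p = 0.398). It shares 198 bases with Hars on the opposite strand, which has 241% of its count, and reads of Hars may be in its count. Lars2 differed by 0.35 ± 0.15 and is described with its own pattern further on.

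**Figure D2:**
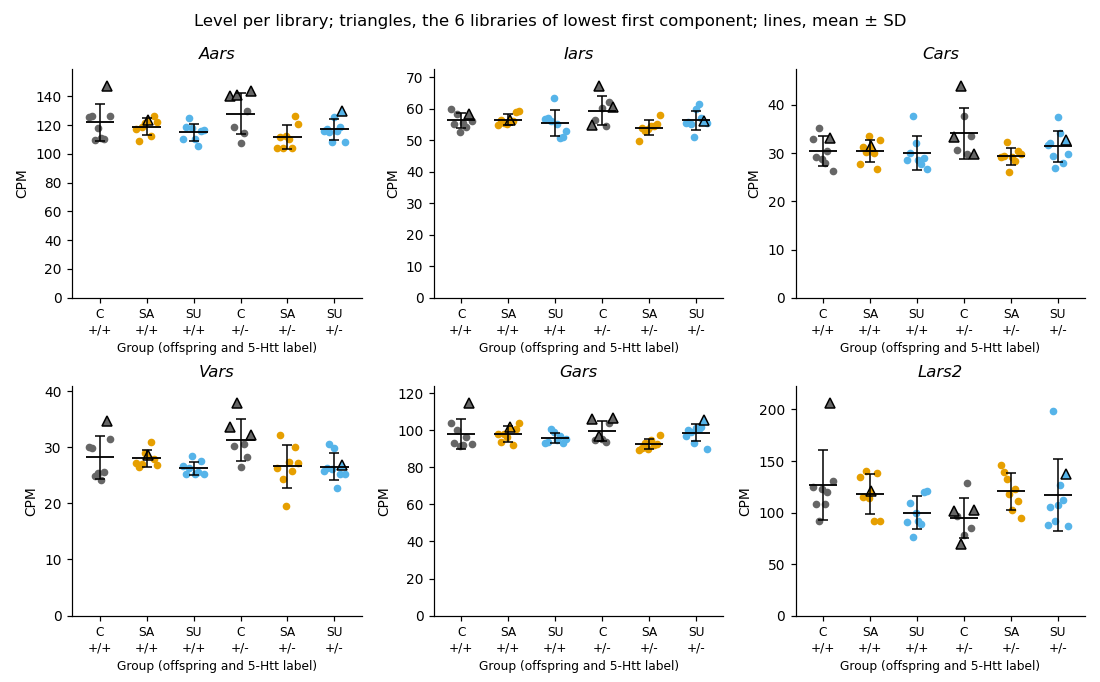
Level per library (CPM, axis from 0) of 6 synthetases in the 6 groups, with the mean and SD of each group as lines. Triangles mark the 6 libraries of lowest first component. In 5-Htt+/- controls the triangles of Aars lie at the top of the group, whereas those of Iars and Cars are spread over it.

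Fewer of these genes stayed under the threshold without the 6 libraries or with the GC slope as a term. Leaving out the 6 libraries also removed 3 of the 7 5-Htt+/- controls, which alone can reduce such a count. Whether base composition caused the change was not tested. When the 6 libraries were left out, 2 of the 12 genes stayed under 0.05 unadjusted, Iars (-0.11 ± 0.049) and Yars (-0.11 ± 0.053), beside 849 lower genes among all 31208. The median of the cytosolic genes was then -0.022. Aars was at -0.076 ± 0.055, Vars at -0.12 ± 0.081, Gars at -0.069 ± 0.040 and Cars at -0.16 ± 0.082, all still below 0. With the GC slope of each library as a term, 3 cytosolic genes were under 0.05, at -0.12 ± 0.044 for Iars, -0.19 ± 0.077 for Cars and -0.095 ± 0.042 for Aars. The share of all genes in that fit is not given here. The value of Aars was about 0.1 smaller in size than in the fit without the term, and those of Iars and Cars moved by less than 0.03.

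Across the 37 genes, the log2 fold change in SA 5-Htt+/- correlated with transcript GC at r = -0.46 (rho = -0.54), in SU 5-Htt+/- at r = -0.59 (rho = -0.68) and between genotypes in controls at r = 0.45 (rho = 0.59). These are correlations across genes that share the same libraries, and genes are not replicates. The mean GC slope was 0.116 ± 0.165 (SD, n = 7) in 5-Htt+/- controls and -0.0187 ± 0.114 (SD, n = 8) in SA 5-Htt+/- libraries. GC had a median of 50.4% in cytosolic and of 54.4% in mitochondrial transcripts.

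**Figure D3:**
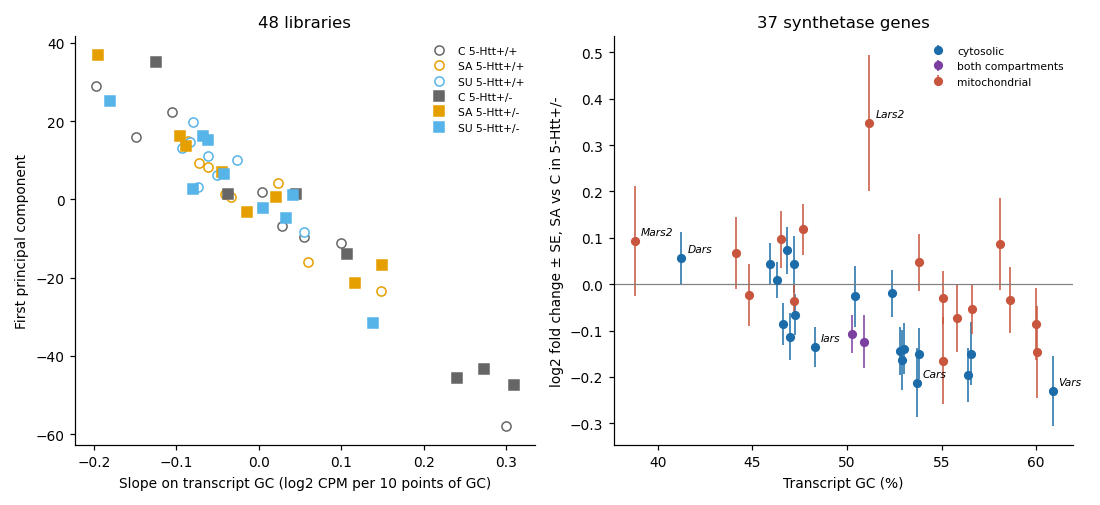
Left, first principal component against the slope of log2 CPM on transcript GC in 48 libraries, coloured by group. Right, log2 fold change with SE of each synthetase in SA against control 5-Htt+/- libraries, against the GC percent of its transcript. Vars, the cytosolic gene of highest GC, has the lowest fold change, and Dars, the cytosolic gene of lowest GC, is above 0.

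The lower cytosolic genes lay mostly in the ATF4-linked list, 13 synthetases whose genes are known ATF4 targets. That list was chosen with earlier results of these data known. Of these 13, 10 were lower in SA 5-Htt+/- offspring at an unadjusted p under 0.05, where 6.96% of all genes and 9.96% of genes of like level were lower. A log2 fold change below 0 was found in 12, and the median was -0.14. Of the 8 other genes, 7 cytosolic ones and Kars, 2 were lower. In the fit that omits the 6 libraries all 13 ATF4-linked genes were below 0, with a median of -0.069, and 2 of them were lower at that threshold. With the GC slope as a term all 13 were below 0 again, with a median of -0.073. The members of the list share the same libraries and controls, so that their signs are not independent.

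Many genes of the amino acid response were lower in the same animals. Of 32 such genes, chosen with earlier results of these data known, 18 were lower in SA 5-Htt+/- offspring and 0 higher. Their median was -0.19, where 6.96% of all genes were lower. Omitting the 6 libraries left 8 lower, with a median of -0.13, and 27 of 32 were below 0. In SU 5-Htt+/- offspring 10 were lower and 1 higher, where 8.71% of all genes were lower, and omitting the 6 libraries left 2 lower and 1 higher. After adjustment 0 of the 32 passed in edgeR in any of the 6 comparisons, whereas DESeq2 called Psat1 in SA 5-Htt+/- (adjusted p = 0.0269) and Slc6a9, a glycine transporter, in SU 5-Htt+/- (adjusted p = 0.0295). The share of all genes that DESeq2 called is not given here, so that these calls may not be particular to this list.

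Psat1, phosphoserine aminotransferase of serine synthesis, was at 65.7 to 94.2 CPM (median 83.5) in 5-Htt+/- controls and at 60.2 to 73.8 CPM (median 67.2) in SA offspring. The log2 fold change was -0.26 ± 0.059, with an unadjusted p of 6.15e-05 and an adjusted p of 0.102 (edgeR). Phgdh, the first enzyme of that pathway, differed by -0.23 ± 0.064, Sesn2, a leucine sensor, by -0.25 ± 0.073, and Atf5, a transcription factor of the same response, by -0.42 ± 0.12. Atf4 itself, named after its values were seen, was at 46.7 to 80.0 CPM (median 58.1) in controls and 47.4 to 56.3 CPM (median 51.6) in SA offspring, a difference of -0.22 ± 0.098 (edgeR, adjusted p = 0.386).

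Markers of several cell types had an unadjusted p under 0.05 in the same groups, those of oligodendrocytes among them. At that threshold 6.96% of all genes were lower in SA and 8.71% in SU 5-Htt+/- offspring. After adjustment 0 of the markers passed in edgeR. The smallest adjusted p of an oligodendrocyte marker was 0.203 in SA and 0.0567 in SU (edgeR). Of 8 oligodendrocyte markers, 7 were lower in SA and 7 in SU 5-Htt+/- offspring, and their sum was 2506 to 4318 CPM (median 3171) in 5-Htt+/- controls beside 2169 to 3241 (median 2616) in SA and 2215 to 2817 (median 2520) in SU. The markers of other cells are given for SA 5-Htt+/- offspring. Of 6 astrocyte markers 2 were lower (median log2 fold change -0.14), of 6 microglia markers 3 (median -0.13), of 7 hippocampal neuron markers 0, though 6 were below 0 (median -0.13), and of 5 endothelial markers 1 (median 0.052). The 6 astrocyte markers summed to 978 to 1196 CPM in 5-Htt+/- controls and 947 to 1065 in SA offspring, and the 6 microglia markers to 246 to 289.9 and 249.9 to 271. Of 10 choroid plexus markers 0 had an unadjusted p under 0.05, though all 10 were above 0 (median 0.46). All these markers had reads in every library. Their part in the values of the synthetases and of the amino acid response was not tested.

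In SU 5-Htt+/- offspring the differences went both ways, among cytosolic and among mitochondrial genes. Of the 37 genes 10 had an unadjusted p under 0.05, 6 lower and 4 higher, beside 8.71% of all genes lower and 6.74% higher. Among the 12989 genes of like level 22.2% had such a p and 13.1% were lower, so that the synthetases lay near the background. After adjustment 0 of 37 were under 0.05 (edgeR), beside 0.016% of all genes. The lower genes were Vars, Wars and Aars of the cytosol and Sars2, Aars2 and Vars2 of the mitochondria. The higher genes were Rars and Dars of the cytosol and Ears2 and Lars2 of the mitochondria. The count was 3 without 5-Htt+/- control replicate 3 and 5 without SU 5-Htt+/- replicate 6. It was 1 after adjustment, Vars, without 5-Htt+/- control replicate 4.

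Wars differed by -0.16 ± 0.063 and Aars by -0.13 ± 0.057. Sars2, the mitochondrial seryl enzyme, was at 4.37 to 7.19 CPM (median 6.32) in controls and 4.46 to 5.96 CPM (median 5.09) in SU offspring, with 5 of 7 controls above every SU library and a log2 fold change of -0.26 ± 0.097 (edgeR, adjusted p = 0.22). Aars2, the mitochondrial alanyl enzyme, differed by -0.18 ± 0.077.

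The libraries of SU offspring also enter the contrast that chose the family and its 7 listed genes. Rars, the arginyl enzyme and 1 of these 7, was higher. It was at 33.5 to 36.1 CPM (median 34.3) in controls and 33.0 to 40.7 CPM (median 37.4) in SU offspring, where 7 of 9 libraries lay above every control and 1 below all of them. Its log2 fold change was 0.097 ± 0.043, and without the 6 libraries 0.12 ± 0.053, the only one of the 37 under 0.05 in that fit. Gars, lower in SA offspring, had -0.013 ± 0.040 in SU.

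**Figure D4:**
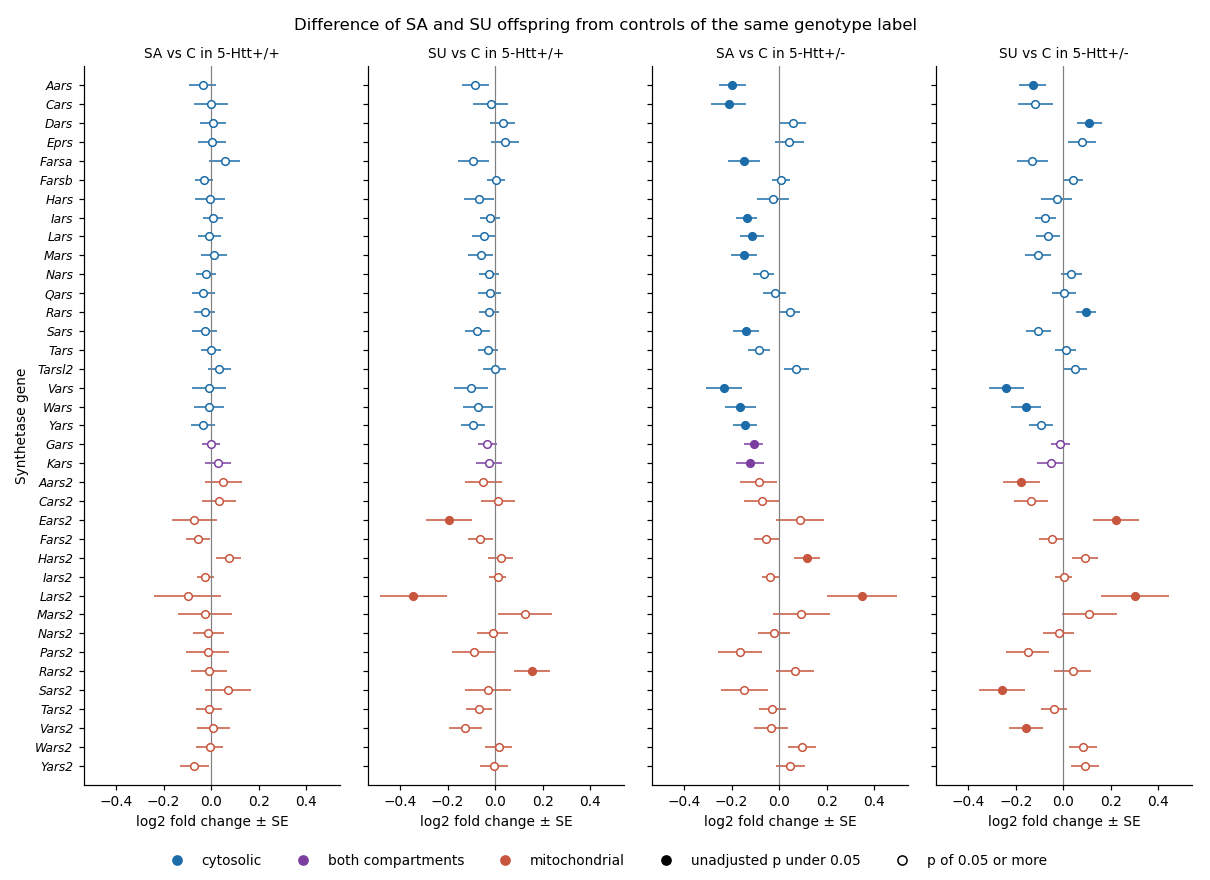
Log2 fold change with SE of each of the 37 synthetases in SA and SU offspring against controls of the same genotype label. Filled points have an unadjusted p under 0.05, none an adjusted one. In SA 5-Htt+/- libraries the filled points are mostly cytosolic and below 0, and in SA 5-Htt+/+ libraries no point is filled.

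In offspring labelled 5-Htt+/+ the synthetases stayed near the controls. In SA 5-Htt+/+, 0 of 37 had an unadjusted p under 0.05, beside 3.07% of all genes in either direction, and 0 an adjusted one, beside 0.0128%. The log2 fold changes ranged from -0.098 (Lars2) to 0.073 (Hars2), and the median of the cytosolic genes was -0.0073. Of the 19 cytosolic genes 12 were below 0, whereas without the 6 libraries 5 were, with a median of 0.0078 and again 0 of 37 under 0.05. The count was 1 without SA replicate 7 or replicate 8. The 95% interval of Aars was -0.15 to 0.077, of Iars -0.078 to 0.093 and of Cars -0.15 to 0.15.

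In SU 5-Htt+/+, 3 of 37 had an unadjusted p under 0.05, all mitochondrial, beside 3.37% of all genes, and 0 had an adjusted one, beside 0.0192%. Lars2 differed by -0.34 ± 0.14, Ears2, the mitochondrial glutamyl enzyme, by -0.19 ± 0.096 and Rars2, the mitochondrial arginyl enzyme, by 0.16 ± 0.076. Rars2 is among the listed genes, and the SU libraries also enter the contrast that chose them. Omitting the 6 libraries, 0 of 37 remained under 0.05, and Lars2 was then at -0.21 ± 0.13. The count was 0 without 5-Htt+/+ control replicate 7 and 1 without 5-Htt+/+ control replicate 2 or SU 5-Htt+/+ replicate 1.

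Between genotypes in controls, a comparison that takes no stressed library, 7 of 37 had an unadjusted p under 0.05. Those higher in libraries labelled 5-Htt+/- were Mars (0.15 ± 0.055), Cars (0.16 ± 0.075), Farsa (0.14 ± 0.067) and Aars2 (0.19 ± 0.079), beside 4.82% of all genes higher. Those lower were Lars2 (-0.42 ± 0.15), Ears2 (-0.22 ± 0.099) and Yars2, the mitochondrial tyrosyl enzyme (-0.13 ± 0.062), beside 3.69% lower. After adjustment 0 of 37 were under 0.05, beside 0.016% of all genes. With the 6 libraries left out, 0 of 37 had an unadjusted p under 0.05. The count depended on single libraries: it was 2, 11 and 4 without 5-Htt+/- control replicates 3, 4 and 7, and 3, 4, 3 and 17 without 5-Htt+/+ control replicates 3, 4, 5 and 7.

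The same controls enter the comparisons with SA and SU, so that a low or high control group appears in each. Of the 32 amino acid response genes 13 were higher and 1 lower in 5-Htt+/- controls at an unadjusted p under 0.05. Among all genes 4.82% were higher and 3.69% lower. After adjustment 0 of the 32 passed (edgeR, smallest adjusted p = 0.436). Those higher included Ddit4, an inhibitor of mTORC1 (0.31 ± 0.091), and Mthfd2, an enzyme of mitochondrial folate metabolism (0.35 ± 0.11). Only 2 of the 32 were higher once the 6 libraries were omitted. Of the oligodendrocyte markers 6 of 8 were higher in 5-Htt+/- controls before adjustment and 0 after it.

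Whether the difference of PS offspring from controls depended on genotype was tested as an interaction of the mean of SA and SU with genotype. Of 37 synthetases 2 had an unadjusted p under 0.05, Lars2 and Ears2, beside 6.01% of all genes, and 0 an adjusted one, beside 0%. The interaction was 0.55 ± 0.18 for Lars2 (unadjusted p = 0.00321 and adjusted p = 0.81, edgeR) and 0.29 ± 0.12 for Ears2 (adjusted p = 0.81, edgeR). For Aars it was -0.10 ± 0.070, for Iars -0.098 ± 0.053 and for Cars -0.16 ± 0.090 (SE). This contrast averages SA and SU and does not compare SA offspring alone between genotypes. Without the 6 libraries 0 of 37 had an unadjusted p under 0.05, and Lars2 was at 0.36 ± 0.19. The count was 1 without 5-Htt+/- control replicate 3, 6 without 5-Htt+/- control replicate 4 or 5-Htt+/+ control replicate 7, and 4 without 5-Htt+/- control replicate 5 or 6, SU 5-Htt+/- replicate 5, or 5-Htt+/+ control replicate 1 or 8.

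Ears2 was at 9.32 to 12.5 CPM (median 11.0) in 5-Htt+/+ controls, 8.27 to 11.0 CPM (median 9.66) in SU 5-Htt+/+, 7.24 to 11.8 CPM (median 9.03) in 5-Htt+/- controls and 8.85 to 14.1 CPM (median 11.1) in SU 5-Htt+/- offspring. The groups overlapped in each comparison. Because Ears2 shares bases with Ubfd1 on the opposite strand, reads of that gene may be in its count.

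Lars2 was the most variable synthetase, and its pattern did not follow the rest of the family. It lies at chr9:123366940-123462664. Its level was 92.0 to 206 CPM (median 121) in 5-Htt+/+ controls, 91.4 to 141 CPM (median 118) in SA and 76.0 to 121 CPM (median 95.6) in SU 5-Htt+/+ offspring. It was 69.8 to 129 CPM (median 97.1) in 5-Htt+/- controls, 94.3 to 146 CPM (median 120.2) in SA and 87.0 to 199 CPM (median 107) in SU 5-Htt+/- offspring. All groups overlapped.

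Its correlation with the other 36 synthetases over 48 libraries, after group means were subtracted, ran from -0.43 (Rars2) to 0.34 (Hars), with a median of 0.048. The genes most like it over all genes were Gm15564 (r = 0.955, rho = 0.936, and r = 0.937 without the 2 most extreme libraries), 9330185C12Rik (r = 0.925) and Zc3h7a (r = 0.918), an RNA-binding protein. Rn18s-rs5, annotated as an 18S ribosomal RNA related sequence, ranked 24th with r = 0.677. The mitochondrial ribosomal RNA genes mt-Rnr1 and mt-Rnr2 had r = -0.25 and r = -0.20.

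Lars2 and Gm15564 share a stretch of 72 bases at 98.6% identity with 1 mismatch. In 2 of the 9 Lars2 transcripts, the stretch lies in the 3′ UTR. A read of 50 bases can match both genes there. With the level of Rn18s-rs5 as a term, a fit added after the data were seen, the interaction of Lars2 was 0.19 ± 0.14, its difference in SA 5-Htt+/- 0.089 ± 0.12 and that between genotypes in controls -0.21 ± 0.11. With the GC slope of each library as a term the interaction was 0.61 ± 0.17. Rn18s-rs5 itself had an interaction of 0.88 ± 0.28 and Gm15564 one of 0.53 ± 0.21. Whether the reads of Lars2 come from its own transcripts cannot be told from gene counts.

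**Figure D5:**
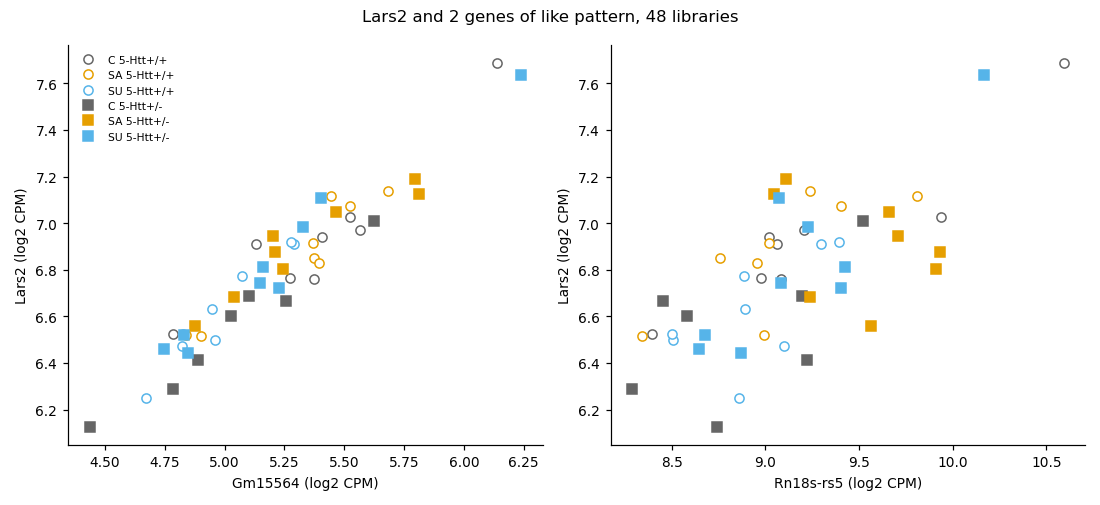
Level of Lars2 against that of Gm15564 (left) and of Rn18s-rs5 (right) in 48 libraries, log2 CPM, by group. Lars2 follows Gm15564 closely in all groups and Rn18s-rs5 more loosely, and the 2 libraries of highest Lars2 are also the highest in both other genes.

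The three-way contrast, from which the family was chosen, subtracts SA minus SU in 5-Htt+/- from SA minus SU in 5-Htt+/+. Of the 7 listed genes, its log2 value was 0.13 ± 0.055 (SE) for Gars, 0.11 ± 0.10 for Cars and 0.091 ± 0.059 for Iars. It was 0.051 ± 0.060 for Rars, 0.049 ± 0.077 for Tars2, the mitochondrial threonyl enzyme, 0.013 ± 0.073 for Fars2, the mitochondrial phenylalanyl enzyme, and -0.19 ± 0.11 for Rars2. For Rars, Tars2 and Fars2 the value was thus smaller than its SE. The study had them among its nominal genes, with another test and perhaps other counts. Of the 19 cytosolic genes 17 were above 0, with a median of 0.084, beside a median of 0.0050 over all genes.

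The listed genes differed in which genotype their values came from. For Gars, SA minus SU was 0.033 ± 0.040 in 5-Htt+/+ and -0.095 ± 0.039 in 5-Htt+/-. For Cars it was 0.020 ± 0.073 and -0.095 ± 0.070, and for Rars2 -0.16 ± 0.076 and 0.027 ± 0.073. In 5-Htt+/+ offspring, Rars2 was at 18.7 to 24.7 CPM (median 21.6) in SA and 21.2 to 27.1 CPM (median 23.8) in SU offspring. Fars2 and Tars2 showed no group that stood apart, with group means of 10.7 to 11.3 CPM and 23.3 to 24.7 CPM.

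Several cytosolic synthetases sit with the scaffold proteins Aimp1, Aimp2 and Eef1e1 in the multisynthetase complex. Of the 8 enzymes of the complex that are among the 37 genes, 4 (Iars, Kars, Lars and Mars) were lower in SA 5-Htt+/- offspring at an unadjusted p under 0.05 and 0 higher, where 6.96% of all genes and 9.96% of genes of like level were lower. Omitting the 6 libraries left Iars alone of these 4. Dars and Rars were higher in SU 5-Htt+/-, where 6.74% of all genes were, and without the 6 libraries Rars alone was. Of the 3 scaffolds 0 had such a p in any of the 4 comparisons with controls. None of 7 genes of eIF2 kinases and phosphatase subunits did in SA 5-Htt+/- offspring.

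Further genes of the translation machinery also had differences at an unadjusted p under 0.05, and 0 after adjustment in edgeR. In SA 5-Htt+/- offspring 6.96% of all genes were lower and 5.17% higher at that threshold. Of 6 cytosolic elongation factors Eef2 (-0.20 ± 0.081) and Eef1d (-0.15 ± 0.057) were lower in SA 5-Htt+/- offspring. All 6 were below 0, with a median of -0.099, beside -0.11 in the cytosolic synthetases. Of 13 mitochondrial amidotransferase and translation factors Tufm, the mitochondrial elongation factor Tu, was lower (-0.18 ± 0.066) and Mtrf1l, a release factor, higher (0.21 ± 0.095). Of 11 genes of tRNA end processing and editing, Trnt1, which adds the CCA end, was higher (0.19 ± 0.079).

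Within groups the cytosolic genes varied together more than the mitochondrial ones. The median correlation over 48 libraries, after group means were subtracted, was 0.21 over 171 pairs of cytosolic genes, 0.019 over 120 pairs of mitochondrial genes and 0.0071 over 304 pairs between the sets. For the cytosolic pairs it was 0.12 in the fit that omits the 6 libraries. Within the 13 ATF4-linked genes it was 0.39 over 78 pairs, and within the 8 other genes 0.026 over 28 pairs. The highest pairs were Wars with Kars (0.84), Eprs with Mars2 (0.83) and Aars with Kars (0.82), and the lowest was Wars with Rars2 (-0.77). These pairs share libraries and depth, and they share the first component. The correlation of a gene with that component had a median of -0.50 in cytosolic genes and -0.045 in mitochondrial ones. Across the 37 genes it correlated with GC at r = -0.70 (rho = -0.65).

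The ATF4-linked genes also followed the amino acid response genes within groups. The correlation with the mean log2 CPM of those 32 genes was above 0.4 in 12 of 13 ATF4-linked synthetases, with a median of 0.54, and highest for Mars (0.63), Cars (0.61) and Iars (0.61). Mars shares 68 bases with Ddit3 on the opposite strand, which is among the 32 genes and has 49.9% of its count. Some reads may therefore be counted in both. The exception was Eprs, the glutamyl-prolyl enzyme, at -0.085. The median was 0.018 in the 8 other cytosolic and dual genes and -0.11 in the 16 mitochondrial genes, and none of these 24 exceeded 0.4. The share of all genes above 0.4 was not determined, so that this may not be particular to these synthetases. Variation along the first component was not removed from these correlations. Cars and Iars had correlations of -0.079 and -0.18 with the first component, whereas Aars had -0.79 and Wars -0.89.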

How the data were processed

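Per-gene read counts, whole numbers without scaling or filtering, are what the authors deposited. Their methods describe single-end 50 bp reads aligned with STAR and quantified with Salmon, whereas STAR, HTSeq, DESeq2 and GRCm38.p5 appear in the submitters' notes to GEO. Strand setting: not given in the sources used here. Groups were taken from the labels. Members and lists were chosen with earlier results of these data known.

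A gene was tested where 3 or more of the 48 libraries had 5 or more of its reads (31208 of 48440). In R 4.3.3, edgeR 4.0.16 scaled the counts by their upper quartile and fitted a mean per group over all libraries. Contrasts were tested by the quasi-likelihood F test with Benjamini-Hochberg adjustment over all genes tested, and the SE was taken from the F statistic. CPM values are given as levels, and log2 CPM used a prior count of 2. Simulated data with known changes served as a check of the model. Named in full were the 7 listed genes, up to 6 genes of smallest unadjusted p under 0.05 per comparison, the extremes of level, and up to 4 genes of each further list. The GENCODE M21 annotation (GRCm38) gave lengths and GC. All 37 genes were found by gene ID, 29 with the same start and end. No 2 libraries of a group were alike within sampling noise (169 pairs, smallest chi-square per gene 2.42). Members had 71 reads or more in every library. Alternatives were edgeR's likelihood ratio test, DESeq2 1.42.0, TMM scaling, no filter beyond 1 read, the first component as a term, only the groups compared, a replicate block and leaving out each library.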

Additional observations from a re-analysis of the deposited data

Results flagged for a closer look

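A test for 1 library far from the rest of its group was made in 102 groups of libraries over 17 genes, and 4 were marked, where chance marks about 1 in 20. Lars2 was at 206 CPM in 5-Htt+/+ control replicate 7 (nearest library 130.2) and at 199 CPM in SU 5-Htt+/- replicate 3 (nearest 138). Aars was at 148 CPM in 5-Htt+/+ control replicate 7 (nearest 126). Rars was at 40.4 CPM in SA 5-Htt+/+ replicate 8 (nearest 37.04). The 5-Htt+/+ control is among the 6 libraries of lowest first component and accounts for 2 of the 4.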

How the results depend on the processing

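Of 648 values of single named genes under other settings, 646 kept their direction and their side of the adjusted threshold and 0 reversed. The 2 others passed it: Aars in SA 5-Htt+/- with Rn18s-rs5 as a term (-0.27, adjusted p = 0.0178, edgeR) and Vars in SU 5-Htt+/- without control replicate 4 (-0.28, adjusted p = 0.049, edgeR), each 1 gene of 37 where the reported fit had 0. The cause was not tested. All these values were above the adjusted threshold in the reported fit, and many of the settings left out 1 library only. Staying on that side therefore says little about the size of a difference. Sizes did change, as given above for the fit without the 6 libraries.

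Counts of genes with an unadjusted p under 0.05 moved more. For most of these fits the share of all genes at that threshold is not given. Whether the counts moved with that share is therefore not shown. In SA 5-Htt+/- the count of 14 became 7 with the first component as a term, 9 with only the groups compared, 7 with the GC slope as a term and 2 without the 6 libraries, and 5 to 16 when 1 library was left out (5 without 5-Htt+/- control replicate 3). The 12 lower cytosolic and dual genes became 5, 7, 3 and 2 in these fits, in the same order, and 5 to 13 with 1 library left out. In SU 5-Htt+/- the count of 10 became 3, 5, 5 and 1, and 3 to 14 with 1 library left out, with 0 to 1 after adjustment. Between genotypes in controls, 7 became 2, 4, 1 and 0, then 11 with Rn18s-rs5 as a term, and 2 (without 5-Htt+/- control replicate 3) to 17 (without 5-Htt+/+ control replicate 7) with 1 library left out. The interaction count of 2 became 4 in DESeq2 and with the GC slope, 6 with Rn18s-rs5, 0 without the 6 libraries and 1 to 6 with 1 library left out. In SU 5-Htt+/+ the 3 became 1 under TMM and with Rn18s-rs5, 0 without the 6 libraries and 0 to 4 with 1 library left out. In SA 5-Htt+/+ the range was 0 to 1. The 18 lower amino acid response genes became 8 without the 6 libraries and 14 to 20 with 1 library left out.

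Replicate numbers do not pair the libraries: over 115 same-number pairs the median correlation of deviations was -0.0044, 29 pairs were over 0.1, and 6 of 48 libraries matched their own number best. A fit with the replicate number as a block gave 0, 3, 14, 9, 2 and 7 genes for SA and SU 5-Htt+/+, SA and SU 5-Htt+/-, the interaction and genotype, and changed no call after adjustment. The fits without the 6 libraries, with the GC slope and with Rn18s-rs5 were chosen after seeing the data.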
